A study of Mus musculus with 9 samples.

Results

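The Zfp genes are the mouse genes named for a zinc finger protein and a number. Of 396 symbols of this form (Zfp, a number and, in some, a letter or l with a number) in the deposited tables, 183 reached 1 FPKM on average across the 9 libraries and are the members described here. FPKM counts the fragments of a gene relative to the length of the transcript and to all fragments mapped in that library, so that levels of different genes can be compared. The members were thus selected on their mean FPKM, and their levels are given as a description, with no test. A further 213 symbols were below the minimum, and 30 of these were listed at 0 in all libraries. The cells were B16, a mouse melanoma cell line of wild-type genotype, grown on a flexible PDMS film and collected on day 3. The control group (CTL) received no treatment, the MS group was strained cyclically for 72 h, and the Blebb. group received 100 ng/mL of the myosin inhibitor blebbistatin for 72 h. For the last group, the sample labels name blebbistatin without straining, whereas the study's methods describe blebbistatin followed by straining, and it is called Blebb. here after the labels. Each group had 3 libraries, described by the labels as parallel experiments of 1 cell line, so that p-values measure the spread between these cultures.

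Most proteins of this family carry C2H2 zinc fingers, short loops in which a pair of cysteines and a pair of histidines hold a zinc ion and which read DNA or RNA bases when repeated in tandem. Many also start with a KRAB domain, which recruits the corepressor Trim28 (KAP1) and, through it, the histone methyltransferase Setdb1 and heterochromatin proteins. KRAB zinc finger genes have multiplied as neighbours in large clusters, and many bind retroelements. Other members share only the name, including the CCCH proteins around Zfp36, which bind AU-rich elements and promote mRNA decay.

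The members' coding sequences differed in base composition. The 78-base stretches below hold 1 finger and the linker behind it, read from the GENCODE M21 coding sequences on GRCm38, and are shown because GC content is what the members' variation between libraries followed. The capitals mark the codons of both cysteines and both histidines. The first pair belongs to members of low transcript GC content (Zfp931, 33.2%, chr2:178068202-178068279, minus strand, and Zfp991, 35.4%, chr4:147178891-147178968, plus strand). The second pair belongs to members of high GC content (Zfp513, 61.1%, chr5:31200419-31200496, minus strand, and Zfp771, 68.7%, chr7:127254024-127254101, plus strand).
Zfp931: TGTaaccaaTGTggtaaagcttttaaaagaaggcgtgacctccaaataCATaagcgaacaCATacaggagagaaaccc
Zfp991: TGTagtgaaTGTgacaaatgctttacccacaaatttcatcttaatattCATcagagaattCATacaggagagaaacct
Zfp513: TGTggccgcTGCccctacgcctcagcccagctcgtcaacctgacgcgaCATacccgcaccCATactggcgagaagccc
Zfp771: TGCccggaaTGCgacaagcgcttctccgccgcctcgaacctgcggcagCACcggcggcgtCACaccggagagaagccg
The finger units themselves held 41.0% and 33.3% GC in the first pair against 66.7% and 70.5% in the second, while the same kind of residue pattern is encoded in all 4. At the level of RNA, Zfp991 ranged from 0.0925 FPKM in Blebb. 2 to 2.69 FPKM in MS 1. Zfp771 ranged from 14.5 FPKM in Blebb. 3 to 19.8 FPKM in Blebb. 2, and Zfp513 from 10.6 to 15.7 FPKM in the same libraries. The pairs also differed in level, with means of 4.06 FPKM for Zfp931 and 1.29 FPKM for Zfp991, against 12.1 FPKM for Zfp513 and 16.5 FPKM for Zfp771.

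The finger pattern (cysteine codons 2 to 4 codons apart, 12 codons, then histidine codons 3 to 5 codons apart) was found in the coding sequence of 176 of 183 members. The other 7 were Zfp36, Zfp36l1 and Zfp36l2 of the CCCH type, and Zfp330, Zfp365, Zfp703 and Zfp839. A codon pattern of the KRAB box within the first 900 coding bases was found in 59 members. These had a median of 1.82 FPKM (interquartile range 1.26 to 3.32), while the 124 members without it had a median of 5.37 FPKM (2.69 to 10.0). The pattern was not checked against protein sequences, so that members without it may still encode a KRAB domain. Below, KRAB members are those with the pattern.

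The share of symbols that were members is given by class as a description, since the mean level chose them. Of 196 symbols with the KRAB pattern 30.1% reached the mean of 1 FPKM, against 63.3% of 196 symbols without the pattern. The share was 72% for symbols with 1 to 4 fingers, 59% with 5 to 9 fingers and 36.2% with 10 or more. It was 57.5% for symbols with no other Zfp gene within 500 kb, 45.3% with 1 to 5 such neighbours and 35.6% with 6 or more. Among symbols with 6 or more neighbours, 25% of those with the KRAB pattern and 59.5% of those without were members, so that the order by KRAB pattern was also present inside the dense neighbourhoods. These shares are descriptions of 1 cell line. Genes that share sequence can lose fragments in counting, and 17 of the 59 KRAB members had at least 10% of their 50-base words in other genes, against 9 of the 124 others. The part of shared sequence in the lower levels was not tested.

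**Figure D1:**
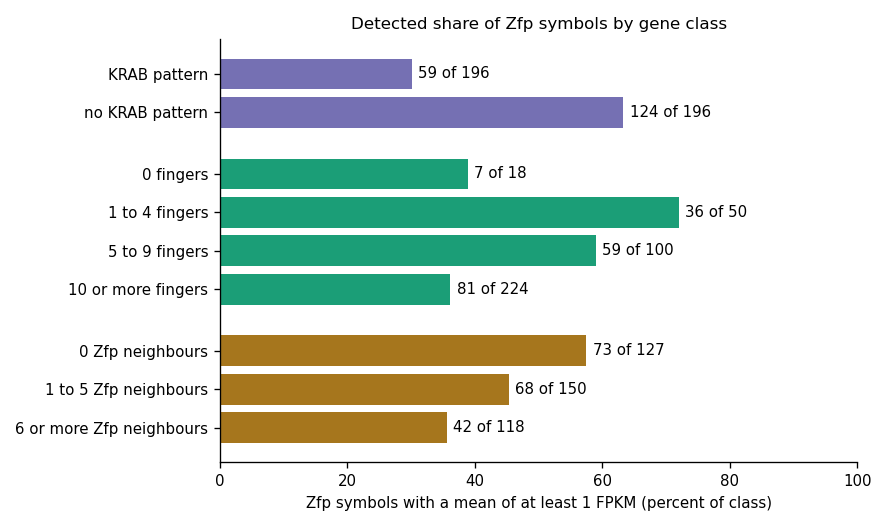
Share of Zfp symbols that reached 1 FPKM on average (x axis, percent of the class), by KRAB codon pattern, number of fingers and number of other Zfp genes within 500 kb. Numbers at the bars are members of symbols, and the bar of the KRAB pattern (59 of 196) is shorter than that of symbols without it (124 of 196).

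The neighbourhoods differed widely in the share of symbols that were members (positions on GRCm38, from GENCODE M21). In the neighbourhood chr13:67038596-67827002, 5 of 23 symbols were members, with Zfp87 the highest at 2.81 FPKM. In chr17:21008903-23599487, 3 of 23 were members, and Zfp213 was the highest at 10.2 FPKM. In chr4:145510759-147848366, 2 of 18 were members, namely Zfp991 and Zfp984. The opposite was seen for chr7:127233061-127885996, where all 10 symbols were members, with Zfp771 the highest at 16.5 FPKM. In chr6:47819266-48623227, 8 of 9 symbols were members, with Zfp777 the highest at 14.8 FPKM. Chromosome 7 held 92 symbols and 47 members, the most of any chromosome.

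The promoters of the members were searched for the letters of 6 known motifs. Promoter windows of RefSeq (GRCm38.p6, 250 bases before to 50 bases after the start) existed for 148 of 183 members, some with several starts. The SBS motif, a sequence that Zfp143 is known to bind, was found on either strand in 8 of 187 member windows (4.28%), in 2.57% of the windows of all genes tested and in 1.01% of all promoter windows. The 4 matches of highest mean FPKM are shown as 51-base stretches, in the direction of the gene and with the motif or its reverse complement in capitals. They lie at chr14:52019689-52019739 (Zfp219, minus strand), chr8:3493093-3493143 (Zfp358, plus strand), chr7:24081855-24081905 (Zfp180, plus strand) and chr11:58307001-58307051 (Zfp692, plus strand).
Zfp219: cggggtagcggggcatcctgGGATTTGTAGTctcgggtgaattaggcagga
Zfp358: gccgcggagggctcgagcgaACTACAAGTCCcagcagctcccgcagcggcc
Zfp180: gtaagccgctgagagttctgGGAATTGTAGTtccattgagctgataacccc
Zfp692: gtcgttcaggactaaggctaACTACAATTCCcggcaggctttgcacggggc
Relative to the gene's start, the first motif base lay at -6 in Zfp219, -25 in Zfp358, -22 in Zfp180 and -48 in Zfp692. The other 4 matches were Zfp1, Zfp58, Zfp691 and Zfp93. The GC box GGGCGG was found in 51.3% of member windows and 65.7% of the windows of genes tested, and the CCAAT box CCAAT in 45.5% and 38.1%, on either strand. The E box CACGTG was found in 3.74% of member windows against 10.5%, the ETS letters CCGGAAG in 20.9% against 19.5%, and TATAAA in 6.95% against 6.31%. A match of letters is a description and not a bound site.

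The 9 libraries were made of melanoma cells by their markers. All 7 melanocyte markers were expressed, with means between 21.4 and 3827 FPKM, while none of 18 fibroblast, macrophage and keratinocyte markers reached a mean of 1 FPKM. The columns summed to between 439939 and 484093 FPKM, and the sequencing depth is unknown. Between 9529 and 10388 genes reached 1 FPKM in a library, and the 10109 genes whose average reached 1 FPKM were tested. The libraries of each group differed in the relation of a gene's level to its GC content, and leaving out 1 library moved several of the values below, which are then given without it.

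The members were mostly genes of low level, and in bulk RNA fewer expressing cells and less RNA per cell cannot be told apart. Their median was 3.78 FPKM (interquartile range 1.80 to 7.56), against 10.4 FPKM over all genes tested. A total of 32 members had at least 10 FPKM, 41 had 5 to 10, 59 had 2 to 5 and 51 had 1 to 2 FPKM. The members together summed to between 1099 FPKM in MS 2 and 1213 FPKM in CTL 3. All 183 were above 0 in every library, and 134 had at least 1 FPKM in every library. Just inside the minimum were Zfp472 (1.01 FPKM), Zfp715 (1.01) and Zfp169 (1.02), and just outside it were Zfp322a (0.994), Zfp287 (0.981) and Zfp955a (0.979). These 6 genes had values on both sides of 1 FPKM within CTL and within Blebb., and 53 of the 213 symbols outside reached 1 FPKM in some library.

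Zfp637 (chr6:117841180-117845956) had the highest mean at 77.1 FPKM. Its values were 65.0, 86.0 and 79.4 FPKM in CTL, 72.8, 82.6 and 69.4 FPKM in MS, and 83.4, 77.2 and 78.4 FPKM in Blebb. The 3 groups overlapped, and its 9 libraries stayed within a narrow range. The second was Zfp207 (chr11:80383279-80405733), known as BuGZ, which binds Bub3 and takes part in spindle assembly. Zfp207 had 32.4, 58.6 and 57.4 FPKM in CTL, 76.2, 52.2 and 51.1 FPKM in MS, and 46.1, 33.2 and 62.9 FPKM in Blebb. It was lowest in CTL 1 and Blebb. 2 and highest in MS 1, a pattern that recurs below in members of low GC content. The next members by mean level were Zfp706 at 38.0 FPKM, Zfp384 at 33.6, Zfp428 at 24.2, Zfp219 at 23.5, Zfp740 at 20.8, Zfp346 at 19.0, Zfp664 at 18.8 and Zfp598 at 17.9.

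Among the CCCH proteins, 3 of 4 genes were members. Zfp36 (tristetraprolin) had a mean of 2.53 FPKM, with 2.64, 2.46 and 2.47 FPKM in CTL, 2.48, 2.25 and 2.89 FPKM in MS, and 2.46, 2.75 and 2.40 FPKM in Blebb. Its paralogs Zfp36l1 and Zfp36l2 were higher, with means of 7.06 and 8.73 FPKM, and Zfp36l3 was listed at 0 in all libraries. Zfp36 was among the steadiest members, with all 9 values between 2.25 and 2.89 FPKM and overlapping groups.

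All 8 genes of the RNA and ribosome list were members. Zfp598, the ubiquitin ligase that marks ribosomes stalled in collisions, had a mean of 17.9 FPKM. Zfp622 and Zfp593, known for maturation and export of the large ribosomal subunit, had means of 14.2 and 9.41 FPKM. Zfp346, which binds double-stranded RNA, had 19.0 FPKM, and the RNA-binding proteins Zfp106 and Zfp385a had 14.6 and 15.5 FPKM. Zfp622 varied little, between 13.1 FPKM in CTL 3 and 15.1 FPKM in CTL 1. In contrast, Zfp638, a partner of the HUSH silencing complex, had 0.106, 2.49 and 3.73 FPKM in CTL, 6.13, 2.23 and 0.419 FPKM in MS, and 0.883, 0.196 and 3.86 FPKM in Blebb. Its libraries of 1 group differed by more than the group means did. Zfp326, a subunit of the DBIRD complex at RNA polymerase II, had the lowest value of 0.599 FPKM in CTL 1 and the highest of 4.94 FPKM in MS 1.

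Of 9 genes of chromatin and SUMO partners, 8 were members. Zfp687 (15.8 FPKM), Zfp592 (4.45 FPKM) and Zfp532 (3.78 FPKM) are related proteins that associate with Zmynd8. Zfp410, an activator of the remodeler gene Chd4, had 13.1 FPKM, and Zfp217, an oncogene product that binds the Lsd1 and CoREST corepressors, had 5.18 FPKM. The SUMO ligase Zfp451 had 3.18 FPKM, Zfp827, which recruits the NuRD complex, had 1.41 FPKM, and Zfp644, a partner of the methyltransferases G9a and GLP, had 1.28 FPKM. Zfp462 was below the minimum at 0.329 FPKM. Zfp410 lay between 11.0 FPKM in CTL 1 and 14.4 FPKM in CTL 3, and Zfp644 lay between 0.533 FPKM in Blebb. 1 and 2.62 FPKM in MS 1.

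Of 10 activators and lineage factors, 6 were members. Zfp384 had 28.3, 34.1 and 36.8 FPKM in CTL, 31.6, 33.1 and 31.8 FPKM in MS, and 39.9, 32.6 and 33.8 FPKM in Blebb., with overlapping groups. The corepressor Zfp703 had a mean of 12.9 FPKM and Zfp64 of 10.3 FPKM. Zfp148 (3.12 FPKM), Zfp143 (2.68 FPKM) and Zfp281 (2.11 FPKM) were lower and varied more between libraries. Zfp143, the factor of the SBS motif, had 1.69, 3.07 and 3.56 FPKM in CTL, 4.33, 2.16 and 3.63 FPKM in MS, and 1.35, 1.40 and 2.92 FPKM in Blebb. Zfp503 (0.511 FPKM), Zfp423 (0.275) and Zfp521 (0.0334) were below the minimum, and the stem cell factor Zfp42 (Rex1) was listed at 0.

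Of 4 KRAB proteins known from imprinted genes and retroelements, 3 were members. Zfp445, which protects imprints, had 0.364, 2.13 and 3.22 FPKM in CTL, 4.71, 1.50 and 1.37 FPKM in MS, and 0.794, 0.418 and 3.16 FPKM in Blebb. Zfp809, which silences retroviral DNA, had 0.320, 2.09 and 2.61 FPKM in CTL, 3.71, 1.29 and 1.58 FPKM in MS, and 0.972, 0.495 and 2.46 FPKM in Blebb. Both were lowest in CTL 1, next lowest in Blebb. 2 and highest in MS 1, and all groups overlapped. Zfp568, a repressor of a placental Igf2 promoter, had a mean of 1.52 FPKM, and Zfp57 was just below the minimum at 0.880 FPKM. Of 2 spindle and ubiquitin factors, Zfp207 is described above and Zfp91 was listed at 0.0457 FPKM.

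**Figure D2:**
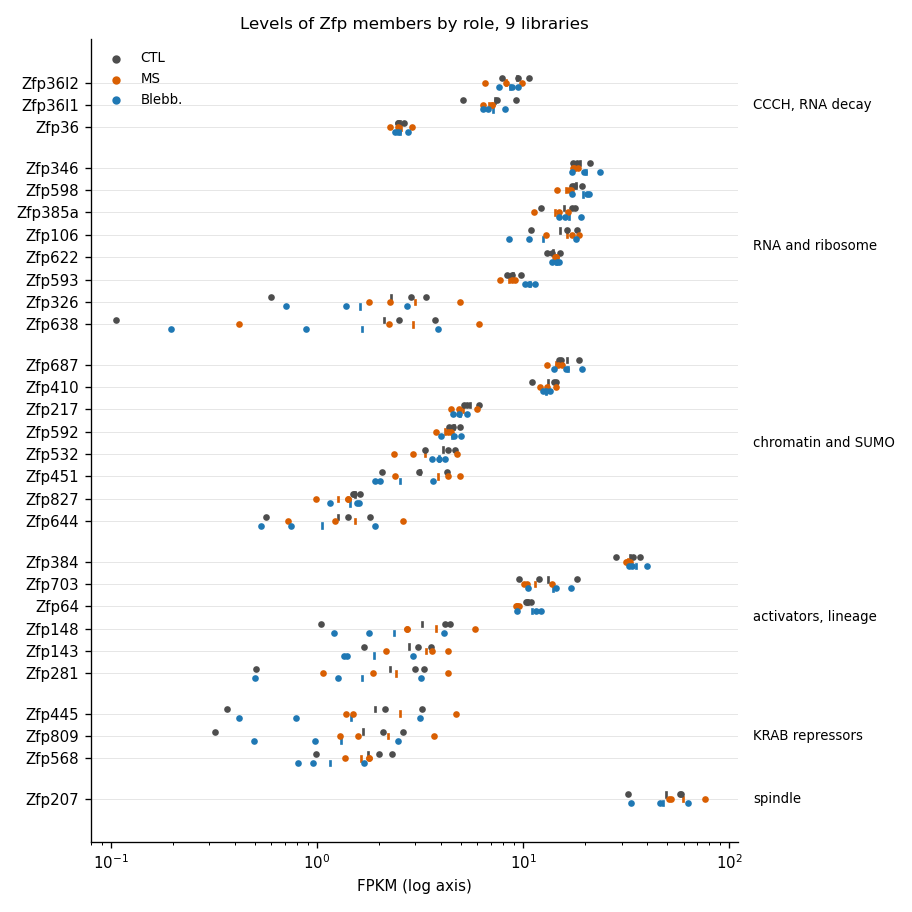
FPKM (log axis) of the 29 members of the role lists in each of the 9 libraries. Points are libraries coloured by group and short bars are group means. The points of the 3 groups lie among each other for most genes, and Zfp638, Zfp445 and Zfp809 spread far more than Zfp36, Zfp622 and Zfp410.

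The partners of the KRAB domain were present. Of 18 genes of this pathway, 17 were matched by symbol and all 17 were tested. Trim28, the corepressor itself, had a mean of 124 FPKM, and the methylation reader Uhrf1, the deacetylase Hdac1 and the DNA methyltransferase Dnmt1 had 74.4, 51.4 and 44.3 FPKM. The heterochromatin proteins Cbx3 and Cbx5 had 29.9 and 9.66 FPKM, and Setdb1 had 8.27 FPKM. None of the 17 had an adjusted p under 0.05 in limma in any comparison (background 0% in each), and 0 had an unadjusted p under 0.05 (background 0.158% in MS against CTL, 1.25% in Blebb. against MS and 0.089% in Blebb. against CTL). For MS against CTL, their median difference on the log2 scale was 0.02, against -0.0018 over all genes tested. For Blebb. against MS it was -0.16, against -0.0059, and for Blebb. against CTL it was -0.13, against -0.01. The largest falls against MS were those of Morc3 (-0.70), Cbx5 (-0.58), Hdac2 (-0.58) and Cbx3 (-0.56), with GC contents of 38.7% to 43.5%. The 1713 genes tested with GC content up to 43.7% had a median of -0.33 there. Smarcad1, with 41.1% GC, had 0.05. Values without 1 library are not given for this list, and the part of GC content was not tested.

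Variation between libraries was large relative to the level for many members. The ratio of the highest to the lowest library had a median of 1.76, and 73 members reached a ratio of at least 2. MS 1 was the highest library for 59 members (32.2%, against 28.7% of all genes tested) and Blebb. 2 for 36 (19.7%, against 21.9%). CTL 1 was the lowest library for 45 members (24.6%, against 19.7%) and MS 1 for 41 (22.4%, against 14.0%). MS 1 was thus an extreme library in both directions. MS 2 was the highest library for 1 member.

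The members separated in 2 directions by GC content. GC was taken from the longest GENCODE M21 transcript and was known for all 183 members, with a median of 48.4% and a range of 33.2% to 68.7%. The SD of GC was 7.34 percentage points over the members and 6.12 over the genes tested. The 59 KRAB members had a median GC of 43.2%, with 43.1% at the last codon positions, and the 124 others had 51.3% and 60.9%. Ordered by GC, the members fell into 61 low-GC members (33.2% to 43.7%), 61 middle-GC members (43.9% to 52.3%) and 61 high-GC members (52.4% to 68.7%). The low-GC members included 35 with the KRAB pattern and had a median of 2.01 FPKM, while the high-GC members included 9 and had a median of 7.06 FPKM. GC and the log2 mean level had a correlation of r = 0.49 over the 183 members, which share all libraries.

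In each library, the deviation of a member is its log2(FPKM + 1) minus its mean over the 9 libraries. The median deviation of the low-GC members was -0.49, 0.14 and 0.25 in CTL, 0.58, -0.06 and 0.01 in MS, and -0.26, -0.45 and 0.26 in Blebb. CTL 1, Blebb. 1 and Blebb. 2 were therefore low and MS 1 was high, and each group held values on both sides of 0. The 1713 genes tested with GC up to 43.7%, the low-GC members among them, had medians of -0.46, 0.13 and 0.25 in CTL, 0.53, -0.07 and 0.07 in MS, and -0.25, -0.49 and 0.27 in Blebb. The low-GC members thus followed this larger set of similar base composition in all 9 libraries. In MS 1, 58 of the 61 low-GC members were above their own mean, and in CTL 1, 4 of 61.

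The high-GC members ran the opposite way with a smaller amplitude. Their median deviation was highest in Blebb. 2 at 0.18 and in CTL 1 at 0.14, and it was lowest in MS 1 at -0.17 and in Blebb. 3 at -0.11. In Blebb. 2, 53 of 61 were above their own mean, and in MS 1, 5 of 61. The correlation of deviation with GC over the 183 members ran from r = -0.77 in MS 1 to r = 0.70 in Blebb. 2, and over the genes tested from -0.64 in MS 1 to 0.55 in Blebb. 1. When the GC trend of each library over all genes (loess with a span of 0.5) was removed, the correlation over the members lay between -0.26 and 0.27, and the median deviation of the low-GC members lay between -0.05 and 0.04. The members are among the genes fitted, and the removal takes out by design what genes of like GC content share. Values with the GC trend removed thus describe whether the members followed the trend of all genes, and they do not test its cause.

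**Figure D3:**
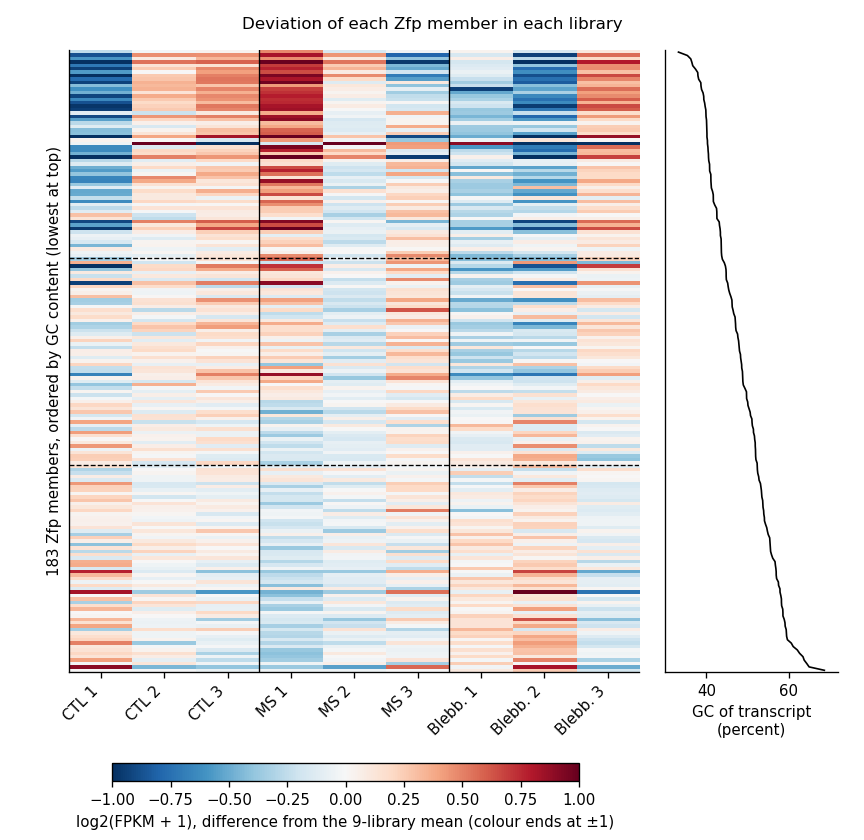
Deviation of the 183 members (rows, ordered by transcript GC content, lowest at the top) in the 9 libraries (columns), as log2(FPKM + 1) minus the 9-library mean, with GC content in percent at the right. Dashed lines part the 3 sets of 61. The low-GC rows are low in CTL 1 and Blebb. 2 and high in MS 1, and the high-GC rows are weaker and opposite.

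**Figure D4:**
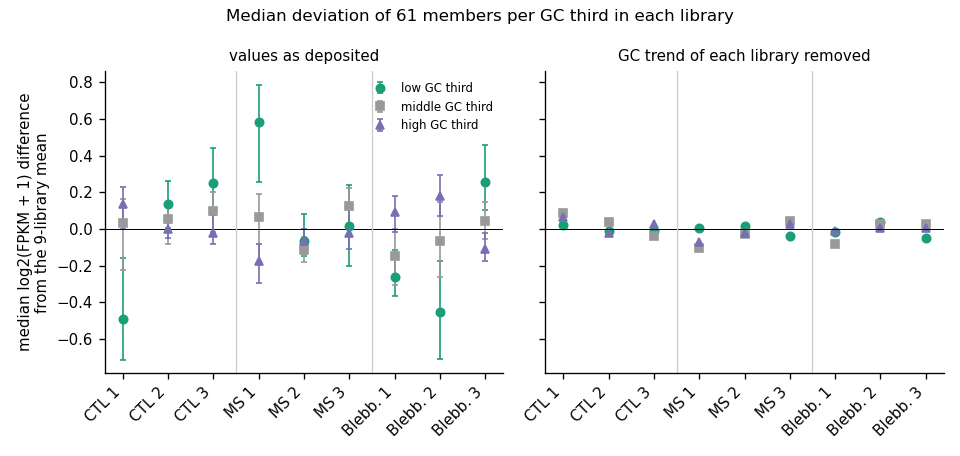
Median deviation in log2(FPKM + 1) from the 9-library mean for the 61 low-, middle- and high-GC members in each library. Left, values as deposited with bars for the interquartile range over members; right, medians after removal of each library's GC trend. The low-GC medians run from -0.49 in CTL 1 to 0.58 in MS 1 at the left and between -0.05 and 0.04 at the right.

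Pairs of members reflected the same split. Over the 9 libraries, which all pairs share, the median Pearson r of 16653 pairs was 0.07, with an interquartile range of -0.50 to 0.59, and over all pairs of genes tested it was 0.04. Pairs of low-GC members had a median r of 0.73 and pairs of high-GC members of 0.47, while a low-GC and a high-GC member had a median r of -0.55. With the GC trend removed, the median was 0.02 for low-GC pairs and 0.09 for high-GC pairs. Members within 500 kb of each other (160 pairs) had a median r of 0.51, which became 0.09 with the GC trend removed. The first principal component held 74.1% of the members' variance, against 70.4% for all genes tested. The 3 groups accounted for 14.0% of the members' variance and for 13.2% over all genes tested. On this component, CTL 1 and Blebb. 2 scored -5.55 and -5.42 and MS 1 scored 5.55, so that libraries of different groups lay together at 1 end.

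The likeness of a member to the family was measured as Pearson's r of its deviations with the median deviation of all other members over the 9 libraries. It was 0.95 for Zfp704, 0.92 for Zfp84, 0.89 for Zfp866 and 0.87 for Zfp451, the 4 highest. It was -0.78 for Zfp41, -0.71 for Zfp622, -0.70 for Zfp385a and -0.67 for Zfp956, the 4 lowest. Zfp84, a KRAB member, had 0.805, 1.53 and 1.71 FPKM in CTL, 1.78, 1.03 and 1.46 FPKM in MS, and 0.877, 0.888 and 1.61 FPKM in Blebb. Zfp41 had 5.52, 4.30 and 4.30 FPKM in CTL, 3.29, 5.25 and 3.91 FPKM in MS, and 5.08, 5.90 and 4.50 FPKM in Blebb. The libraries that were low for Zfp84 were high for Zfp41.

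Cyclic straining was compared with the unstrained control to find which genes differ in strained cells. No member differed between MS and CTL in limma, with p-values adjusted over the 10109 genes tested by the Benjamini-Hochberg method (0 of 183 at an adjusted p under 0.05, smallest adjusted p = 1.00, background 0%). At an unadjusted p under 0.05 there were also 0 members, against 0.158% of all genes. The median log2 fold change was -0.015 over the members and -0.0018 over all genes tested, with a median SE of 0.19 for a single member. No member reached a 2-fold difference in FPKM + 1, a scale that understates the differences of members of low level.

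The largest positive difference of MS against CTL was that of Zfp68, a KRAB member, and the largest negative one was that of Zfp362. Zfp68 had 0.816, 1.55 and 2.14 FPKM in CTL, against 4.45, 1.78 and 2.76 FPKM in MS. The groups overlapped, and MS 1 was the highest library. The log2 fold change was 0.66 with an SE of 0.38 (adjusted p = 1.00, limma) and 0.40 without MS 1. Zfp362 (chr4:128773088-128806045) had 11.4, 10.6 and 9.41 FPKM in CTL, against 7.10, 8.48 and 9.21 FPKM in MS. All MS values were below all CTL values, and the log2 fold change was -0.31 with an SE of 0.16 (adjusted p = 1.00, limma).

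Among members that averaged at least 3 FPKM, the largest positive differences of MS against CTL were 0.45 for Zfp969, 0.38 for Zfp146, 0.35 for Zfp367 and 0.34 for Zfp35 on the log2 scale. Zfp969 shares all of its 50-base words with other genes and is uncertain. Its value was -0.06 without CTL 3 and 0.98 without CTL 2. Zfp146 had 0.07 and Zfp367 had -0.10 without CTL 1, and Zfp35 had 0.19 without MS 1. After Zfp362, the negative differences were -0.29 for Zfp688, -0.28 for Zfp777 and -0.26 for Zfp532. Without CTL 1, Zfp688 and Zfp777 each had -0.13, and Zfp532 had -0.09 without MS 1 and -0.48 without MS 3.

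The members whose MS and CTL values did not overlap were few. In 9 members all MS values were below all CTL values (4.92%, background 2.64%), namely Zfp213, Zfp282, Zfp362, Zfp414, Zfp513, Zfp598, Zfp629, Zfp64 and Zfp827. In 1 member, Zfp235, they were above (0.546%, background 0.524%). Zfp629 had 5.18, 5.56 and 5.07 FPKM in CTL, against 3.61, 4.99 and 4.51 FPKM in MS. Zfp235 had 0.887, 1.20 and 1.18 FPKM in CTL, against 1.50, 1.28 and 1.20 FPKM in MS. Of the 9 lower members, 8 had GC contents of at least 53.7%, and Zfp827 had a lower one.

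The sign of the difference followed GC content. Of the 61 low-GC members, 57 were higher in MS than in CTL on the mean, with a median log2 fold change of 0.19, and of the 1713 genes tested in the same range of GC 92.9% were higher, with a median of 0.20. Of the 61 high-GC members 8 were higher, with a median of -0.13, against 18.5% of the 3610 genes of that range with a median of -0.09. Without CTL 1, the low-GC median was -0.0017 with 30 of 61 higher, and without MS 1 it was -0.02 with 28 of 61 higher. Without CTL 3 it was 0.35. With the GC trend removed it was -0.01 with 28 of 61 higher. The high-GC median was -0.06 without CTL 1, -0.07 without MS 1 and -0.03 with the GC trend removed, and 16, 15 and 20 of 61 members were then higher. The KRAB members had a median of 0.14 with 44 of 59 higher, which became -0.02 without CTL 1, -0.02 without MS 1 and -0.02 with the GC trend removed. It was 0.23 without CTL 3. The 124 members without the pattern had a median of -0.06 with 45 higher, and of -0.05 with 40 higher with the GC trend removed. The middle-GC median was -0.03, and it was -0.06 with the GC trend removed. Over all 183 members the median was -0.015, and it was -0.037 with the GC trend removed.

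The Blebb. group was compared with MS to find how the inhibitor group differs from strained cells. No member had an adjusted p under 0.05 (0 of 183, smallest adjusted p = 0.897, limma, background 0%). At an unadjusted p under 0.05 there were 2 members (1.09%, background 1.25%), Zfp593 and Zfp362. Both were higher in the Blebb. group. This count was 22 (12% of the members, against 9.24% of all genes) without Blebb. 3, and 8 of the 22 were higher. It was 12 (6.56%, against 5.92%) without MS 2, and 1 of the 12 was higher. It was between 0 and 2 without each other library. The median log2 fold change was -0.03 over the members and -0.01 over all genes tested.

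Zfp593 (chr4:134243289-134245592) had the smallest p of the members. It had 9.09, 8.77 and 7.69 FPKM in MS and 11.4, 10.7 and 10.2 FPKM in Blebb., so that all Blebb. values were above all MS values. The log2 fold change was 0.31 with an SE of 0.13 (adjusted p = 0.897, limma), and 0.17 with the GC trend removed. Zfp362 had 7.10, 8.48 and 9.21 FPKM in MS and 11.6, 12.5 and 9.06 FPKM in Blebb., with 1 overlapping value. Its log2 fold change was 0.38 with an SE of 0.16 (adjusted p = 0.897, limma), and 0.24 with the GC trend removed. Blebb. 3 was the lowest of the Blebb. libraries for both genes. The third smallest p was that of Zfp598, with 14.5, 17.0 and 16.6 FPKM in MS and 20.5, 20.9 and 17.3 FPKM in Blebb. and a log2 fold change of 0.27.

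Among members with a mean of at least 3 FPKM, the largest negative differences of Blebb. against MS came with wide errors. Zfp969 had 2.70, 7.77 and 4.53 FPKM in MS and 6.70, 0.741 and 1.01 FPKM in Blebb., a log2 fold change of -0.91 with an SE of 0.66. Its values scattered within each group, in CTL also (2.99, 7.68 and 1.04 FPKM). Zfp146 had -0.66, Zfp148 -0.53 and Zfp24 -0.52 on the log2 scale, and without MS 1 these were -0.40, -0.24 and -0.33. Without Blebb. 3 they were -1.02, -0.88 and -0.79. On the positive side, Zfp213 had 0.34 and Zfp219 had 0.29, which were 0.23 without Blebb. 2 and 0.18 without MS 1.

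In 6 members all Blebb. values were above all MS values (3.28%, background 3.05%), namely Zfp414, Zfp593, Zfp598, Zfp629, Zfp707 and Zfp746. In 1 member, Zfp383, they were below (0.546%, background 0.683%). Zfp383, a KRAB member, had 1.25, 1.15 and 1.39 FPKM in MS and 0.709, 0.820 and 1.13 FPKM in Blebb. Zfp414, Zfp598 and Zfp629 were named above for MS against CTL as well, and both comparisons use the same MS libraries. Their CTL and Blebb. values overlapped.

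By GC content, 6 of 61 low-GC members were higher in Blebb. than in MS with a median of -0.31, against 7.82% of all genes of that range with a median of -0.33. Of the 61 high-GC members 54 were higher with a median of 0.14, against 84.3% of all genes of that range with a median of 0.13. The low-GC median was -0.08 without MS 1, -0.12 without Blebb. 2, -0.58 without Blebb. 3 and 0.01 with the GC trend removed. The high-GC median was 0.09 without MS 1, 0.07 with 39 of 61 higher without Blebb. 2, 0.24 without Blebb. 3 and 0.02 with 37 of 61 higher with the GC trend removed. For the KRAB members the median was -0.22 with 12 of 59 higher. It was -0.06 without MS 1, -0.11 without Blebb. 2, -0.35 without Blebb. 3, -0.03 with quantile normalization and 0.01 with the GC trend removed. The 124 members without the pattern had a median of 0.06 with 75 higher. Their median was -0.01 without Blebb. 2 and 0.03 with 68 higher with the GC trend removed.

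**Figure D5:**
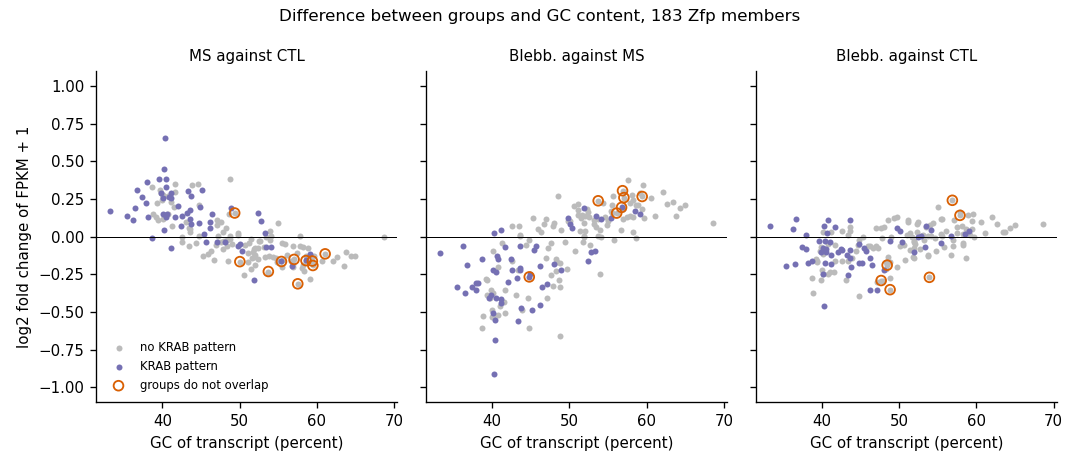
Log2 fold change of FPKM + 1 (y axis) against transcript GC content in percent (x axis) for the 183 members in the 3 comparisons. Purple points carry the KRAB pattern and orange rings mark members whose groups do not overlap. The points slope down in MS against CTL and up in Blebb. against MS, which share the MS libraries, and none passed the adjusted threshold.

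The Blebb. group was also compared with CTL, the libraries without any treatment. No member had an adjusted p under 0.05 (0 of 183, smallest adjusted p = 1.00, limma, background 0%), and 0 had an unadjusted p under 0.05 (background 0.089%). The median log2 fold change was -0.05 over the members and -0.01 over all genes tested, and 71 of 183 members were higher in Blebb. (38.8%, against 46.0% of all genes). Zfp593 was again first, with 8.31, 8.81 and 9.71 FPKM in CTL, all below the Blebb. values given above. Its log2 fold change was 0.24 with an SE of 0.13 (adjusted p = 1.00, limma). The other positive differences were 0.20 for Zfp653, 0.16 for Zfp467 and 0.15 for Zfp213. Zfp653 had 0.08 without CTL 1, and Zfp213 had 0.04 without Blebb. 2 and 0.30 without Blebb. 3. Zfp467 had 13.2, 5.19 and 4.31 FPKM in CTL, against 6.50, 17.3 and 3.75 FPKM in Blebb., and its difference was -0.38 without Blebb. 2.

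The negative differences of Blebb. against CTL were led by Zfp969 at -0.46, which was 0.07 without CTL 2 and -1.14 without Blebb. 1. Zfp608 had 2.71, 2.80 and 3.37 FPKM in CTL, against 1.78, 2.17 and 2.36 FPKM in Blebb., all lower, with a log2 fold change of -0.35 and an SE of 0.23 (adjusted p = 1.00, limma). Among members with a mean of at least 3 FPKM, Zfp106 had -0.30, Zfp507 -0.29 and Zfp148 -0.29, and without Blebb. 2 the value of Zfp106 was -0.09 and that of Zfp148 was -0.03. Zfp507 had -0.46 without Blebb. 3. In 4 members all Blebb. values were below all CTL values (2.19%, background 1.15%), namely Zfp263, Zfp518b, Zfp608 and Zfp839, and in 2, Zfp593 and Zfp692, they were above (1.09%, background 0.93%). Zfp692 had 2.88, 3.15 and 3.31 FPKM in CTL, against 3.57, 3.73 and 3.31 FPKM in Blebb., with the nearest values almost equal. By GC content, 15 of 61 low-GC members were higher with a median of -0.10. Of all genes of that range 21.0% were higher, with a median of -0.13. Of the 61 middle-GC members 13 were higher, with a median of -0.07. Of the 61 high-GC members 43 were higher with a median of 0.03, against 68.5% of all genes of that range. The high-GC median was -0.02 with 20 higher without Blebb. 2. The low-GC median was -0.36 without CTL 1, -0.33 without Blebb. 3, 0.03 without CTL 3, 0.03 without Blebb. 2 and 0.02 with the GC trend removed.

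Over all 3 groups, the moderated F test gave 0 members at an adjusted p under 0.05 (smallest adjusted p = 1.00, limma, background 0%) and 0 at an unadjusted p under 0.05 (background 0.257%). None of the 29 tested members of the role lists had an adjusted p under 0.05 in any comparison, and Zfp593 in Blebb. against MS was the only one with an unadjusted p under 0.05.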

How the data were processed

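RNA was sequenced from 9 cultures of B16 cells. The authors extracted RNA with TRIzol and deposited FPKM values, 1 for every gene in every library. For CTL 1 the header gives the sample's name in place of the unit, and its column was taken as FPKM too. The labels name GRCm38 and mm10, the aligner and counting program are not given in the sources used here, and the depth is unknown, so that precision was judged from the spread between libraries.

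Differences were taken on log2(FPKM + 1), which understates those of low genes. A total of 10109 genes averaging at least 1 FPKM were fitted in limma 3.58.1 (R 4.3.3) with 3 groups in 1 fit and a mean-variance trend, two-sided, with Benjamini-Hochberg adjustment over all of them and a threshold of 0.05. The fit was tested on simulated data. GC content, positions, fingers, the KRAB pattern and shared words of 50 bases came from GENCODE M21 (GRCm38), with GC for 95.6% of the genes tested, and promoters from RefSeq.

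The members and lists were chosen with earlier results of these data known. Members named are the 10 of highest level, in each comparison the 4 largest differences in each direction at a mean of at least 3 FPKM, the 3 smallest p-values and up to 5 without overlap, the role lists, the genes beside the minimum, and the 4 most and 4 least like the family. Zfp931, Zfp991, Zfp513, Zfp771, the highest gene of each neighbourhood, the matched promoters, Zfp68 and the full lists of members without overlap were named after their values were seen. Same-numbered libraries were not treated as pairs in the main fit. Alternatives were each library left out, removal of the GC trend, quantile normalization, median-of-ratios factors, the same sum for each library, a pseudocount of 0.1, a minimum of 5 FPKM or none, a fit without the trend, a fit of the 2 groups compared, and the replicate block. Their use for medians of the GC sets and KRAB members was chosen after seeing the data. Plots were drawn with matplotlib 3.10.9.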

Additional observations from a re-analysis of the deposited data

How the results depend on the processing

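No member had an adjusted p under 0.05 in any comparison under any alternative run. The median log2 fold change of the members moved beyond the spread of the library medians in the following alternatives. With a minimum mean of 5 FPKM it was -0.11 in MS against CTL and 0.13 in Blebb. against MS. The minimum leaves each difference unchanged and keeps 73 members of higher level, with 11 low-GC and 37 high-GC members among them. With quantile normalization the median was 0.074 in Blebb. against MS and 0.022 in Blebb. against CTL. The cause of this second change was not tested. With each library left out, it lay between -0.06 and 0.05 in MS against CTL, between -0.06 and 0.01 in Blebb. against MS and between -0.06 and -0.01 in Blebb. against CTL. Another minimum, no trend, a fit of the 2 groups compared and the replicate block leave single differences unchanged by design. The same holds for leaving out a library outside the comparison, so many of the values counted next could not change sign. Of 304 single differences under the alternatives other than leaving out 1 library, 1 changed sign. This was Zfp367 in MS against CTL, at -0.10 without CTL 1 and Blebb. 2. Of 261 with 1 library left out 6 changed sign, in 4 results with these ranges: -0.062 to 0.98 for Zfp969 and -0.10 to 0.66 for Zfp367 in MS against CTL, and -0.38 to 0.60 for Zfp467 and -1.14 to 0.072 for Zfp969 in Blebb. against CTL. As a check of pairing, the deviations from the group means were correlated between libraries of different groups. Same-numbered libraries had correlations between -0.78 (CTL 1 and MS 1) and 0.84 (CTL 3 and Blebb. 3). Differently numbered ones lay between -0.88 (CTL 3 and Blebb. 2) and 0.92 (CTL 1 and Blebb. 2). With 3 libraries per group, this cannot show whether same-numbered libraries share a batch. With the replicate block in limma, 0 members had an adjusted p under 0.05 and 0 an unadjusted p under 0.05. Without the block, 2 had an unadjusted p under 0.05 in Blebb. against MS. In this balanced design the block cannot change the medians, which were -0.02, -0.03 and -0.05. Without read counts, the share of counting error in the spread of low members is unknown.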

Other observations

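The 3 Zfp genes just under the minimum differed in how they varied with the library. Zfp955a had 0.324, 1.08 and 1.39 FPKM in CTL, 1.95, 0.993 and 0.507 FPKM in MS, and 0.620, 0.298 and 1.65 FPKM in Blebb. Zfp322a had 0.252, 1.17 and 1.28 FPKM in CTL, 2.07, 0.967 and 0.720 FPKM in MS, and 0.614, 0.273 and 1.61 FPKM in Blebb. Zfp955a was lowest in Blebb. 2, Zfp322a was lowest in CTL 1, and both were highest in MS 1. Zfp287 went another way, with its lowest value in MS 2 (0.649 FPKM) and its highest in CTL 3 (1.29 FPKM).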
